A study of Mus musculus with 20 samples.

Results

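The genes described here are 38 genes of the contractile apparatus of skeletal muscle, measured as mRNA in brown adipose tissue (BAT) of the mouse, a fat that makes heat. They were chosen by gene symbol, from a list that covers the filaments of the sarcomere, the Z disc, calcium release and the energy buffer of the muscle fibre. No measured value served as a rule of choice, but earlier results of these data were known when the list was made. All 38 were found once among the 55471 gene IDs of the deposited tables, and 37 passed the filter on low counts. The gene that did not, Tnni1, is given by its counts only. Wild type (WT) mice were compared with mice whose adipose cells lack CEBPB (adipose-specific CEBPB KO), a transcription factor of fat cells, at room temperature (RT) and after 4 h of cold stress. The 20 libraries made up 4 groups of 5: WT RT, WT cold, KO RT and KO cold. The Cre line, the age of the mice and how the tissue was dissected are not given in the sources used here. The labels do not state that libraries came from separate animals, so every p below measures the spread between libraries, which may be technical.

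A skeletal muscle fibre is filled with sarcomeres, in which thick filaments of myosin pull on thin filaments of actin when calcium binds to troponin on the thin filament. Fast and slow fibres build this machine from different genes: fast fibres use the heavy chains Myh4 (type IIb), Myh1 (type IIx) or Myh2 (type IIa) with fast troponins, and slow fibres use Myh7 with slow troponins. Brown adipocytes arise from progenitors related to those of skeletal muscle and lie close to muscle in the body, but they have no sarcomeres.

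The libraries held 27.07 to 55.18 M gene counts. Cebpb, the targeted gene, stood at 75.5 to 167 CPM (gene counts scaled to library size) in the WT libraries and at 0.208 to 2.27 CPM in the KO libraries. The summed CPM of 10 brown adipocyte markers, among them Ucp1, was 15900 to 21300 at RT and 22200 to 27200 in the cold. On the first principal component of all tested genes, which held 53.9% of the variance and separated the temperatures, WT RT replicate 4 (-23.4) and WT cold replicate 5 (26.6) lay nearer the middle than the other libraries of their groups. For each comparison, the number of members called without this pair is given as well.

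Most of these genes were high or low together from library to library, also within the RT groups. WT RT replicate 1 was the highest library of its group for 38 of 38 members, and WT RT replicate 2 was second for 37. In KO RT, replicate 3 was highest for 22 members and replicate 4 for 13. The members took 0.181% of all gene counts in WT RT replicate 1 and 0.0133% in WT cold replicate 5, the extremes of the 20 libraries. In WT RT replicate 4, by contrast, 16 members had 0 counts, as many as in KO cold replicates 2 and 3. Summed over the 28 members that had fewer than 10 counts in some library with hardly any Ckm (the muscle creatine kinase gene), the level was 530 to 1330 CPM in 4 RT libraries, 30 to 248 CPM in 5 others and 3.28 CPM in WT RT replicate 4. In the cold it was 33.2 and 20.5 CPM in WT replicates 1 and 3 and 1.19 to 3.96 CPM in the other 8 libraries. The RT groups were thus not uniform, and in this sum WT RT replicate 4 lay among the cold libraries. It is among the 9 libraries with hardly any Ckm that defined the 28 members, so its low sum is partly built in. Over the other 10 members WT RT replicate 4 summed to 155 CPM, where the 20 libraries ran from 134 to 348 CPM. In bulk tissue, fewer muscle cells in a sample and less muscle mRNA per cell cannot be told apart.

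**Figure D1:**
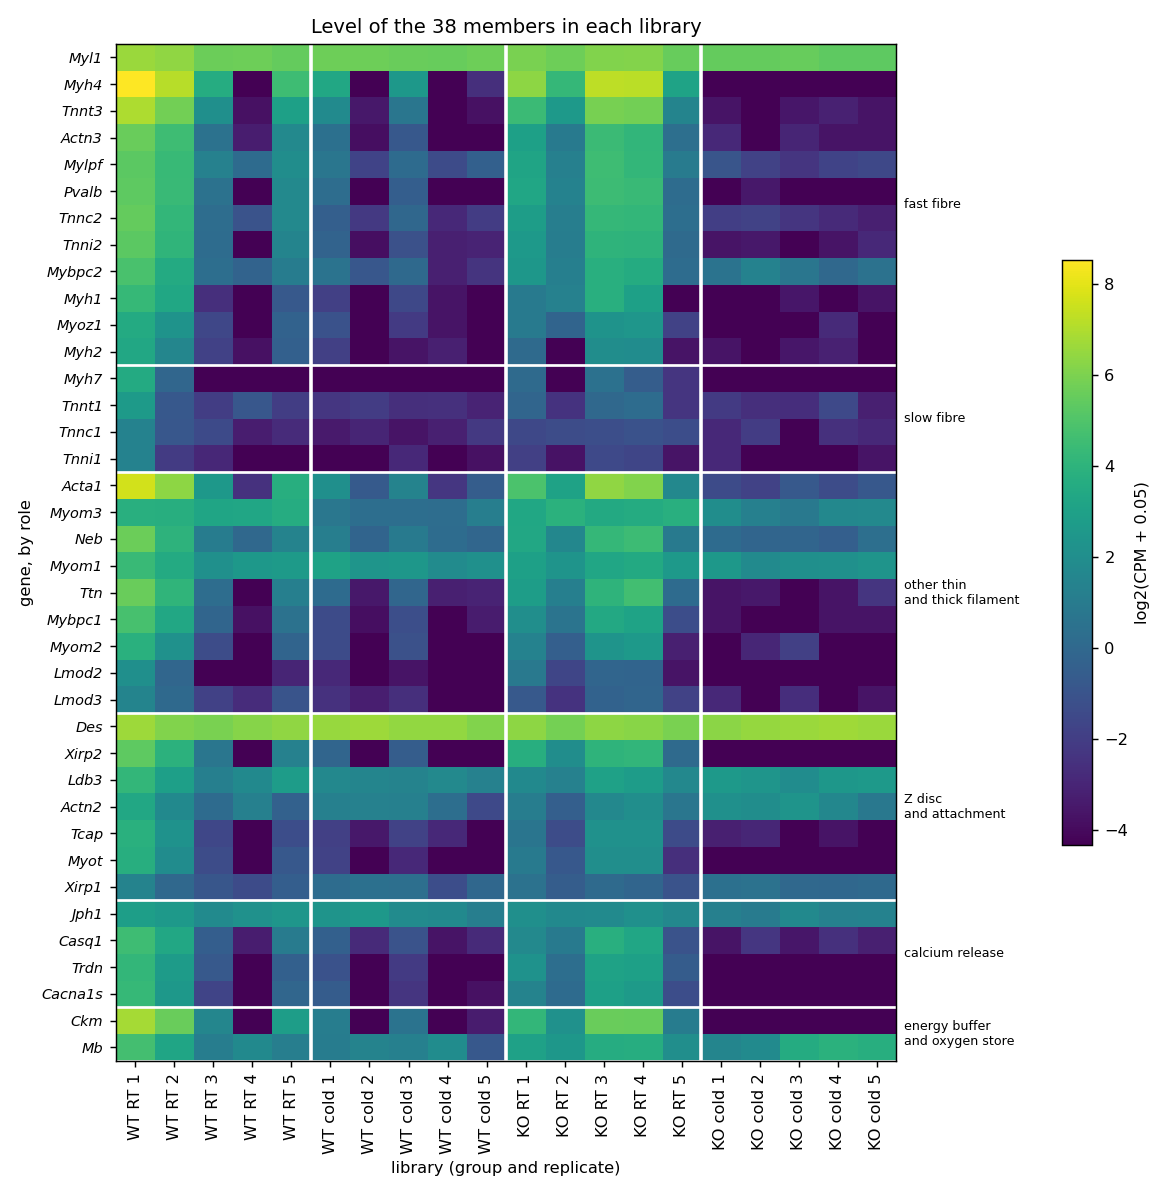
Level of each of the 38 members (rows, grouped by role) in each of the 20 libraries (columns, by group and replicate), as log2 of CPM plus 0.05. Most rows are bright in WT RT replicates 1 and 2 and in KO RT replicates 1, 3 and 4, and dark in WT RT replicate 4 and in all KO cold libraries, while Myl1 and Des stay bright in every column and Myom3 separates RT from cold.

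In WT, cold was accompanied by lower levels of most members. Of the 37 tested, 31 were lower in the cold and 0 were higher by edgeR's quasi-likelihood test (adjusted p under 0.05, Benjamini-Hochberg over all 15233 tested genes). Over all tested genes the test called 30.2% lower and 26.2% higher. Only 13 members passed the filter when the cold libraries alone were fitted. Most thus entered the test through the RT libraries, so their fall was partly built in. The median log2 change of the 37 was -4.99, against -0.05 over all genes. At an unadjusted p under 0.05, 33 members passed in either direction, and DESeq2 also called 0 members higher. Without WT RT replicate 4 and WT cold replicate 5, 29 members were called lower and 0 higher, and the calls of Myh7 (adjusted p = 0.0517) and Mb (adjusted p = 0.0524) ended. Most calls did not come from separated groups: only Myom3 and Tnnt1 were called lower with no overlap between the 5 RT and the 5 cold libraries, where 19.1% of all genes were. Without WT RT replicates 1 and 2, the pair of WT libraries richest in these mRNAs, 2 members were called lower (Myom3 and Lmod3) and 1 higher (Xirp1). That pair was picked after seeing the data and by the members' own counts, so the loss of calls is partly built in.

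**Figure D2:**
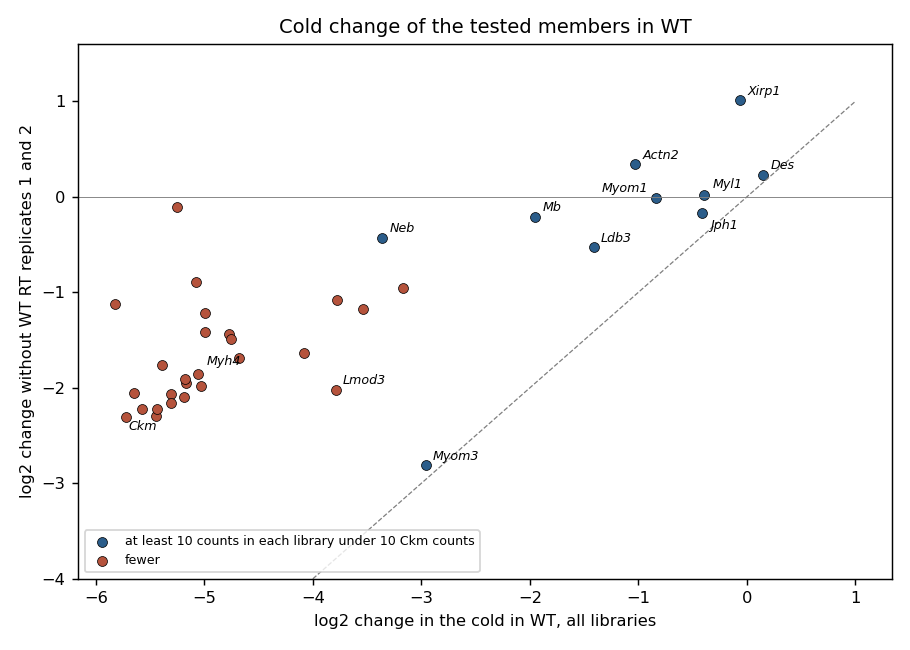
The log2 change in the cold in WT for each tested member, with all libraries (horizontal axis) and without WT RT replicates 1 and 2 (vertical axis); each point is a gene, blue points had at least 10 counts in each of the 9 libraries with fewer than 10 Ckm counts, and the dashed line marks equal values. Myh7 is left out because it then has 0 counts in both groups. Myom3 lies near the line, at -2.96 and -2.81, while Ckm moves from -5.57 to -2.22.

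In KO, the groups were better separated. Of the 37 tested members 27 were lower in the cold and 1, Des, was higher, where the test called 31.7% of all genes lower and 27.5% higher. The median log2 change was -5.98, or -5.87 with the 8 members that had 0 counts in all KO cold libraries set to their bounds, against -0.05 over all genes. For 23 of the members called lower the 5 RT libraries all lay above the 5 cold libraries, where this held for 23.0% of all genes. Many members passed the filter through the RT libraries, so both contrasts with all genes are partly built in. Where KO cold had 0 counts, a few counts in each KO RT library sufficed for no overlap. At an unadjusted p under 0.05, 30 members passed. Without WT RT replicate 4 and WT cold replicate 5 the counts were again 27 lower and 1 higher. Without the 4 RT libraries richest in Ckm (WT RT replicates 1 and 2, KO RT replicates 3 and 4), a choice with the same limit as above, 24 members were called lower and 2 higher (Des and Ldb3) in KO.

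Few of these genes were called for the knockout itself. Their median log2 change was -0.46 at RT, with 36 of 37 below 0, and -1.48 in the cold, with 27 below 0. Over all genes the median was 0.0. Most of these genes moved together from library to library, so they are not separate observations. At RT, 0 of 37 members were called in either direction by edgeR and 0 by DESeq2, where edgeR called 1.38% of all genes higher and 1.32% lower. At an unadjusted p under 0.05, 1 member passed (Jph1). In the cold, Myom3 was called higher in KO and 0 members were called lower, where 3.51% of all genes were called higher and 4.19% lower. At an unadjusted p under 0.05, 3 members passed, and DESeq2 called Mb and Myom3 higher and Myh4, Tnnt3, Ckm and Jph1 lower. Nearly all WT cold counts of Myh4, Tnnt3 and Ckm lay in replicates 1 and 3. For these genes edgeR gave adjusted p = 0.382, 0.499 and 0.595. Jph1 changed by -0.66 ± 0.22 for the knockout in the cold (edgeR adjusted p = 0.0728), and by -0.81 ± 0.19 without WT RT replicate 4 and WT cold replicate 5 (adjusted p = 0.0118). In that setting Jph1 was called lower and Myom3 higher, and 0 members were called for the knockout at RT or for the interaction. The cold change differed between the genotypes for 0 of 37 members by the interaction test, in edgeR and in DESeq2, where edgeR called 0.427% of all genes as higher and 0.315% as lower. At an unadjusted p under 0.05, 2 members passed, Myom3 and Ldb3. The knockout effect at RT had an SE of 1.24 on the log2 scale for Ckm and of 0.18 for Myom3. A difference in Ckm was thus far harder to detect. For Ckm the SE was 6.58 for the knockout in the cold and 7.37 for the interaction. Many members had hardly any counts in the cold, and only 13 passed the filter when the cold libraries alone were fitted. For the others, the lack of calls in the cold and for the interaction says little.

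To set the members that moved together beside those that did not, the 250 bases before the transcription start are shown for 3 genes of each kind, from RefSeq on GRCm38.p6, 5′ to 3′ on the strand of the gene. For Ckm and Myl1 the printed bases lie within the wider span that the GENCODE annotation gives these genes, and for the other 4 they lie outside it. Capitals mark matches on either strand to CANNTG (the E-box, bound by the MyoD family), CATTCC (the M-CAT element), TATAAA and, by name, the MEF2 and CArG motifs. In the 8 libraries with at least 100 Ckm counts, all at RT, the counts per Ckm count differed by a factor of up to 1.54 for Myh4 and 1.35 for Acta1. Where Ckm had fewer than 10 counts, Acta1 still had 5 to 30.
Ckm (chr7:19410844-19411093, plus strand): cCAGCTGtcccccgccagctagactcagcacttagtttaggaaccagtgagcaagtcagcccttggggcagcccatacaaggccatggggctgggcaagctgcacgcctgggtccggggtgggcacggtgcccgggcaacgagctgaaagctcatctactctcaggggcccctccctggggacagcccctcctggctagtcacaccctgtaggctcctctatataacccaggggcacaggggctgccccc
Myh4 (chr11:67237562-67237811, plus strand): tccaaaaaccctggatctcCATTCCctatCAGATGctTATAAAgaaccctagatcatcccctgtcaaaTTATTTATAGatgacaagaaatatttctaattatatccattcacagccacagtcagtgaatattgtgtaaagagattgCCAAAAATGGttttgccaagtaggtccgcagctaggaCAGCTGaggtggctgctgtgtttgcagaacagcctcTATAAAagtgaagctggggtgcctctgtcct
Acta1 (chr8:123894776-123895025, minus strand): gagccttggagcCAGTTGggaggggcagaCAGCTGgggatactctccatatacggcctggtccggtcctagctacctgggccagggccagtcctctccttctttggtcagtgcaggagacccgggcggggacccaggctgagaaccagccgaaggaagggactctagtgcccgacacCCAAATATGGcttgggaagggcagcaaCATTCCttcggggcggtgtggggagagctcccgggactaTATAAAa
Myl1, Des and Myom3 kept more where Ckm had fewer than 10 counts. Their median CPM there was 70.7%, 117% and 19.4% of that in the 8 libraries with at least 100 Ckm counts.
Myl1 (chr1:66945057-66945306, minus strand): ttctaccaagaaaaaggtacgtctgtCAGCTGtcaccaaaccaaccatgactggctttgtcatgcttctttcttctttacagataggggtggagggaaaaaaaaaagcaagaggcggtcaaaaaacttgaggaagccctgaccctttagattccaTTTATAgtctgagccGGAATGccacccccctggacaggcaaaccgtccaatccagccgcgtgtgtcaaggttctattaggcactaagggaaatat
Des (chr1:75360042-75360291, plus strand): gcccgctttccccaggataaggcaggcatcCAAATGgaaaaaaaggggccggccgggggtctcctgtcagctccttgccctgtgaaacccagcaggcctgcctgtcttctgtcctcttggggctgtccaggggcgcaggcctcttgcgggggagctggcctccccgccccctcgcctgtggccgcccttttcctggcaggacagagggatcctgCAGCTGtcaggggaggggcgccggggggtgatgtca
Myom3 (chr4:135759465-135759714, plus strand): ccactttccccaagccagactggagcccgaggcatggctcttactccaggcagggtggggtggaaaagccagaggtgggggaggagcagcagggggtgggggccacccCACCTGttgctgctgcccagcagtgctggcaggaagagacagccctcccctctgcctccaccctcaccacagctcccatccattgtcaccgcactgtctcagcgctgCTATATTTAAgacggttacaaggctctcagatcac

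Matches were found in both kinds of promoter. RefSeq windows of 300 bases (250 before and 50 after the start) were matched for 26 of the 38 members, as 32 windows. CANNTG was in 84.4% of these windows, against 72.3% of the 32851 windows of all genes. CAGCTG, a form of CANNTG, was in 43.8% against 16.3%, and CATTCC in 28.1% against 14.7%. TATAAA was in 18.8% against 13.6%. The MEF2 motif was in 18.8% against 3.19% and the CArG motif in 15.6% against 1.63%, and both motifs can share bases with TATAAA or with each other. These shares are 6 and 5 of the 32 windows, from 6 and 4 of the 26 members. The same CArG match of Ldb3 is counted in overlapping windows. A match is a stretch of letters and not a site shown to be bound.

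Most fast fibre genes differed widely among the RT libraries. Myh4, the heavy chain of the fastest fibres (GRCm38 chromosome 11, 67238029 to 67260446, plus strand), stood at 370, 142, 12.3, 0 and 23.4 CPM in WT RT replicates 1 to 5. In WT cold it stood at 10.4, 0, 5.79, 0 and 0.119 CPM. In KO RT it stood at 82.7, 19.1, 153, 148 and 8.73 CPM, and all 5 KO cold libraries had 0 counts. The WT groups overlapped, since WT RT replicate 4 was at 0, and the KO groups did not. In WT the log2 change of Myh4 in the cold was -5.06 ± 1.68 (SE; edgeR adjusted p = 0.0214), and without WT RT replicate 1 it was -3.76 with adjusted p = 0.0625. In KO, Myh4 was at least 4000-fold lower in the cold (edgeR adjusted p = 0.0055), taking a floor of 3 counts over the 5 cold libraries (0.0197 CPM). Floors and intervals here cover counting error only.

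The regulatory proteins of the fast thin filament followed Myh4. Tnnt3, fast troponin T, which ties troponin to tropomyosin, stood at 124 CPM in WT RT replicate 1 and at 0.0258 CPM in replicate 4. Its log2 change in the cold was -5.18 ± 1.41 in WT (edgeR adjusted p = 0.00478) and -9.63 ± 2.33 in KO (adjusted p = 0.00195). Tnni2, fast troponin I, which holds the filament off, changed by -5.44 and -7.59, and Tnnc2, fast troponin C, the calcium sensor, by -5.03 and -5.98. All 3 passed in both genotypes. Pvalb, parvalbumin, a calcium buffer that speeds relaxation, had 1 count in all KO cold libraries together and 1870 in KO RT, a ratio of 1630 (exact 95% counting interval 293 to 64400).

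In all, 11 of the 12 fast fibre genes fell in the cold in WT, and 11 of 12 in KO. Over all tested genes 30.2% and 31.7% were called lower. The limit given above for genes that passed the filter through the RT libraries holds here too. The exception differed: Myl1 did not pass in WT and Mybpc2, fast myosin-binding protein C, did not pass in KO (-2.15 ± 0.96, adjusted p = 0.0639). In KO cold Mybpc2 stood at 0.959 to 2.51 CPM, against 0.0612 to 1.45 CPM in WT cold. Myl1, which encodes the alkali light chains of fast myosin, was chosen for description after its values were seen. It stood at 97.9, 83.3, 50.7, 51 and 45.5 CPM in WT RT and at 51.3, 51.2, 48.6, 45.9 and 51.9 CPM in WT cold. In KO RT it stood at 60.8, 51.3, 69.1, 70.1 and 46.8 CPM, and in KO cold at 44.7, 45.6, 46.2, 40.7 and 40.1 CPM. The 5 libraries highest in Myl1 were also the 5 highest in Myh4, and the other 15 lay between 40.1 and 51.9 CPM. The log2 change of Myl1 was -0.40 ± 0.17 in WT (adjusted p = 0.0567) and -0.46 ± 0.17 in KO (adjusted p = 0.0311), and the KO call ended under 9 of the other settings tried (here and below without those added after seeing the data). Per kilobase of exon, Myl1 had a mean level of 30.2 CPM at RT and 22.5 CPM in the cold, whereas Mylpf, the phosphorylatable light chain of the same myosin, went from 11.4 to 0.503 CPM.

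The heavy chains present were almost all of the IIb type. In the 11 libraries with at least 100 counts over the adult skeletal heavy chain genes, and with counts divided by exon length, Myh4 made up 89.0% to 98.5% of the heavy chain signal, with a median of 95%. Myh1 ranged from 0% to 11% and Myh2, the chain of the oxidative fast fibres, from 0% to 2.43%. Myh7, the slow chain, ranged from 0% to 1.98%, and its highest share was in WT RT replicate 1. As raw counts, that share was 2.79% of 16855 heavy chain counts (Wilson 95% interval 2.55% to 3.05%), and with counts of both strands the share per kilobase was 1.09%. Myh1, Myh2 and Myh4 lie next to each other on chromosome 11 and are nearly identical in places, so reads that fit several of them were not counted and their shares are uncertain.

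**Figure D3:**
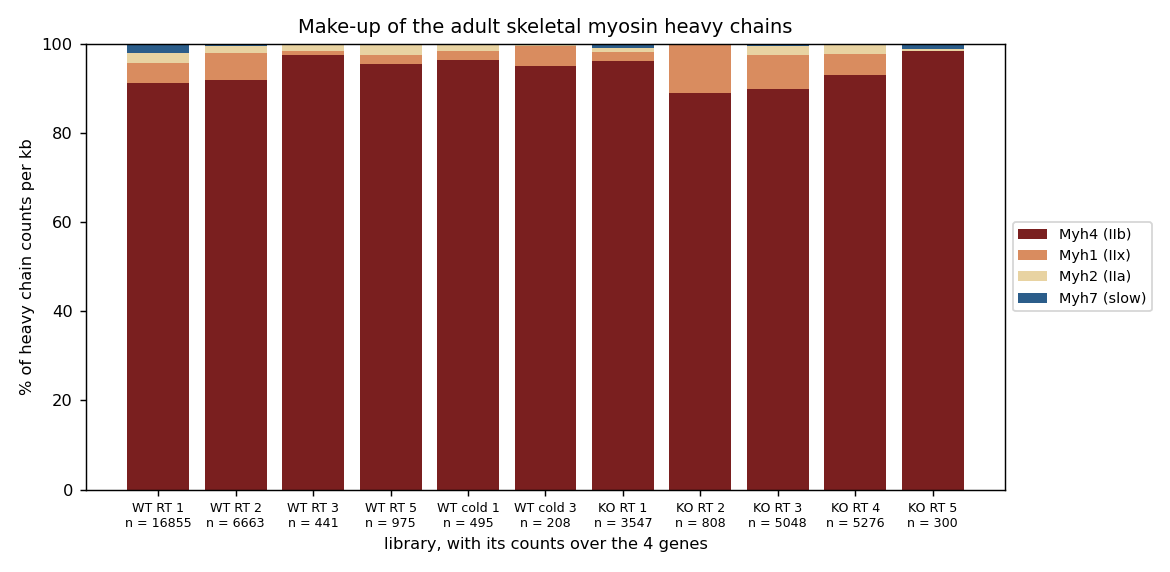
Share of Myh4, Myh1, Myh2 and Myh7 in the summed counts per kilobase of exon of these 4 genes (vertical axis, percent), in the 11 libraries with at least 100 such counts (horizontal axis, with the number of counts). Myh4 fills 89.0% to 98.5% of every bar, and the slow chain Myh7 reaches at most 1.98%.

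The slow fibre genes were sparse everywhere and rested largely on WT RT replicate 1. Myh7 (chromosome 14, 54970684 to 54994626, minus strand) had 470, 39, 0, 0 and 0 counts in WT RT and 0 in all WT cold libraries. In KO RT it had 42, 0, 39, 21 and 5 counts, and in KO cold 0. Myh7 was at least 178-fold lower in the cold in WT, from pooled counts and the same floor of 3, and at least 31.1-fold lower in KO. The WT call (edgeR adjusted p = 0.043) ended under 15 of the other settings tried, with adjusted p = 0.12 without WT RT replicate 1, and the KO change did not pass (adjusted p = 0.178).

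Tnnt1, slow troponin T, had 264, 23, 7, 20 and 8 counts in WT RT and 7, 10, 4, 4 and 3 in WT cold. In KO it had 36, 5, 28, 37 and 5 counts at RT and 6, 3, 3, 10 and 2 in the cold. Scaled to library size the WT groups of Tnnt1 did not overlap, and the KO groups did. Its log2 change in WT was -3.54 ± 0.97 (adjusted p = 0.00458), or -1.43 without WT RT replicate 1 (adjusted p = 0.048). In KO it was -2.01 ± 1.05 (adjusted p = 0.11).

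Tnnc1, the troponin C of slow fibres and heart, had 106, 22, 11, 2 and 4 counts in WT RT and 2, 4, 1, 2 and 7 in WT cold. In KO it had 12, 13, 11, 14 and 12 counts at RT and 3, 5, 0, 4 and 3 in the cold. Its spread over the KO RT libraries was small although Myh4 spanned 8.73 to 153 CPM in them. The log2 change of Tnnc1 was -3.17 ± 0.82 in WT (adjusted p = 0.00265), or -1.64 without WT RT replicate 1, and -1.82 ± 0.9 in KO (adjusted p = 0.0886), although the KO groups did not overlap. Tnni1, slow troponin I, had 106, 8, 3, 0 and 0 counts in WT RT and 0, 0, 3, 0 and 1 in WT cold. In KO it had 9, 1, 9, 9 and 1 counts at RT and 3, 0, 0, 0 and 1 in the cold. WT RT replicate 1 thus held most slow counts of each of these 4 genes in its group. Over the 11 libraries the slow form made up 0.681% to 4.96% of troponin T per kilobase, 0% to 8.18% of troponin I and 1.52% to 18.7% of troponin C. The highest of these shares came from few counts: the 18.7% of KO RT replicate 5 rests on 12 counts of Tnnc1 and 40 of Tnnc2.

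Among the other filament proteins, Acta1, skeletal muscle actin, was the most abundant at RT. It stood at 198, 80.1, 5.83, 0.129 and 13.1 CPM in WT RT and at 4.14, 0.569, 2.67, 0.153 and 0.644 CPM in WT cold. In KO it stood at 29.6, 8.53, 85, 67.3 and 3.15 CPM at RT and at 0.328, 0.235, 0.558, 0.34 and 0.534 CPM in the cold. The WT groups overlapped through WT RT replicate 4 and the KO groups did not. The log2 change of Acta1 in the cold was -5.17 ± 1.33 in WT (adjusted p = 0.00328) and -6.58 ± 1.63 in KO (adjusted p = 0.00237). Per kilobase of exon it had the highest mean level of the 38 members at RT, 31.9 CPM, and 0.662 CPM in the cold.

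The giant proteins of the sarcomere went the same way. Ttn, titin, the spring that runs from the Z disc to the middle of the sarcomere, changed by -4.99 ± 1.37 in WT and by -7.53 ± 1.94 in KO. Neb, nebulin, which runs along the thin filament, changed by -3.36 ± 0.97 and by -3.57 ± 1.04. All 4 changes passed, but for Neb the WT value became -1.95 without WT RT replicate 1 (adjusted p = 0.0498). Neb kept 0.68 to 1.25 CPM in the KO cold libraries, where Ttn had 0 to 0.148 CPM. Of the 9 genes of this group, 8 fell in WT and 8 in KO, where 30.2% and 31.7% of all genes were called lower. The same limit of the filter holds for these counts. Myom1, myomesin, which crosslinks thick filaments at the M band, passed in neither (-0.84 ± 0.36 in WT, adjusted p = 0.0566, and -0.78 ± 0.37 in KO, adjusted p = 0.0795).

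Myom3, another myomesin of the M band (chromosome 4, 135759715 to 135815564, plus strand), had a pattern of its own, and it was chosen for description after its values were seen. It stood at 13.6, 13.4, 9.51, 9.8 and 12.4 CPM in WT RT and at 1.69, 1.19, 1.21, 1.16 and 2.22 CPM in WT cold. In KO it stood at 9.94, 14.7, 11.1, 11.8 and 13.9 CPM at RT and at 3.94, 2.35, 1.78, 3.12 and 3.29 CPM in the cold. All 10 RT libraries lay above all 10 cold libraries, and WT RT replicate 4, with 0 counts of Ckm and Myh4, had 9.8 CPM of Myom3. The log2 change in the cold was -2.96 ± 0.2 in WT (edgeR adjusted p = 3.82e-10) and -2.07 ± 0.19 in KO (adjusted p = 1.62e-08). Its SE was the smallest but for those of Des and Myl1 in WT. Without WT RT replicates 1 and 2 the WT change was -2.81 (adjusted p = 2.1e-08), and without the 4 RT libraries richest in Ckm it was -2.82 in WT and -2.14 in KO. In the cold Myom3 was higher in KO than in WT by 0.96 ± 0.21 (adjusted p = 0.00552), with group means of 2.9 and 1.49 CPM, though the groups overlapped. At RT the genotypes differed by 0.07 ± 0.18 (adjusted p = 0.925), and the interaction, 0.89 ± 0.28, did not pass (adjusted p = 0.176).

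**Figure D4:**
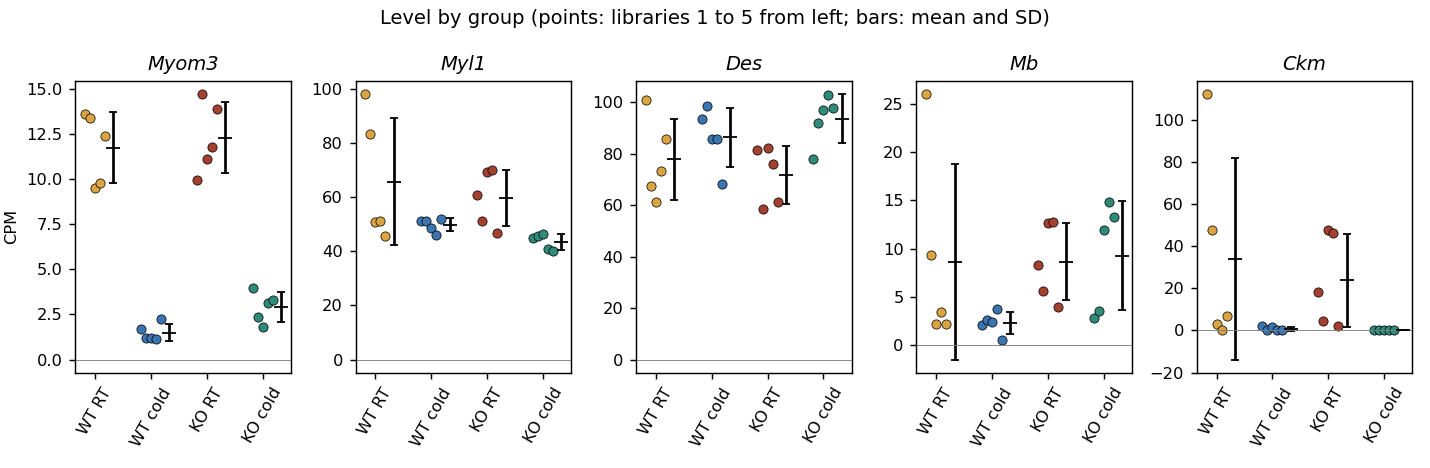
CPM (vertical axis, with a scale of its own for each gene and a grey line at 0) of Myom3, Myl1, Des, Mb and Ckm by group (horizontal axis); points are libraries 1 to 5 from the left, and bars are the mean and SD of 5 libraries. Myom3 is at 9.51 CPM or more in every RT library and at 3.94 CPM or less in every cold library, while the RT values of Ckm run from 0 to 112 CPM.

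The Z disc genes split in 2. Des, desmin, the intermediate filament that links Z discs and is also made in smooth muscle, had the highest RT mean of its group and was nearly level across libraries. It stood at 101, 67.6, 61.3, 73.3 and 85.7 CPM in WT RT and at 93.4, 98.6, 85.9, 85.9 and 68.2 CPM in WT cold. In KO it stood at 81.5, 58.4, 82.2, 76.1 and 61.2 CPM at RT and at 78.1, 91.9, 97.1, 103 and 97.9 CPM in the cold. The RT and cold groups of Des overlapped in both genotypes. Its log2 change was 0.15 ± 0.13 in WT (adjusted p = 0.344), and it rose by 0.38 ± 0.13 in KO (adjusted p = 0.0177, or 0.0527 without the expression filter).

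Actn2, the alpha-actinin of all fibre types, which crosslinks actin at the Z disc, stood at 10.4, 3.39, 1.06, 2.37 and 0.732 CPM in WT RT and at 2.41, 2.47, 2.35, 1.22 and 0.31 CPM in WT cold. In KO it stood at 2.17, 0.695, 3.17, 4.1 and 1.6 CPM at RT and at 4.3, 3.88, 4.94, 3.06 and 1.75 CPM in the cold. The groups overlapped in both genotypes. Neither change passed (-1.03 ± 0.65 in WT, adjusted p = 0.189, and 0.61 ± 0.65 in KO, adjusted p = 0.437). Its fast fibre relative Actn3 fell, with changes of -5.31 in WT and -7.66 in KO (adjusted p = 0.00351 and 0.00295).

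Tcap, which caps titin at the Z disc, Myot, myotilin, and Xirp2, an actin-binding protein of muscle attachment sites, fell in both genotypes. Xirp2 and Myot had 0 counts in KO cold and were at least 522-fold and at least 103-fold lower there than in KO RT. Ldb3, a Z disc PDZ protein, changed by -1.41 ± 0.44 in WT (adjusted p = 0.0117), or by -0.80 without WT RT replicate 1 (adjusted p = 0.0636). In KO it changed by 0.16 ± 0.44 (adjusted p = 0.78). Its difference between the genotypes, the interaction of 1.57 ± 0.62, did not pass (adjusted p = 0.385). Xirp1 passed in neither genotype. It lies within the span of Cx3cr1, a chemokine receptor gene of macrophages, on the same strand, so its counts are uncertain. Of the 7 genes of this group, 4 fell in WT, and in KO 3 fell and 1 rose. Over all tested genes 30.2% were called lower in WT, and 31.7% lower and 27.5% higher in KO. A group of 7 genes is too small to set against these shares.

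The calcium release genes other than Jph1 followed the fast fibre genes. Casq1, calsequestrin of fast fibres, which stores calcium in the sarcoplasmic reticulum, stood at 23.3, 10.3, 0.657, 0.0516 and 2 CPM in WT RT and at 0.723, 0.0948, 0.441, 0.0306 and 0.0954 CPM in WT cold. In KO it stood at 3.32, 1.93, 13.8, 9.86 and 0.445 CPM at RT and at 0.0298, 0.157, 0.0372, 0.124 and 0.0593 CPM in the cold. The WT groups of Casq1 overlapped and the KO groups did not. Its log2 change was -4.68 ± 1.25 in WT (adjusted p = 0.00422) and -6.14 ± 1.58 in KO (adjusted p = 0.00297). Cacna1s, the voltage sensor of the muscle fibre, and Trdn, triadin, which anchors calsequestrin at the release channel, had 0 counts in KO cold. They were at least 173-fold and at least 222-fold lower there than in KO RT. Jph1, junctophilin, which holds the membranes of the release site together, changed by -0.41 ± 0.21 in WT (adjusted p = 0.0992) and by -0.54 ± 0.22 in KO (adjusted p = 0.0385), and the KO call ended under 14 of the other settings tried.

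Ckm, muscle creatine kinase, which regenerates ATP beside the myosin heads (chromosome 7, 19404776 to 19422841, plus strand), stood at 112, 47.8, 2.97, 0 and 7.02 CPM in WT RT. In WT cold it stood at 2.1, 0, 1.44, 0 and 0.0477 CPM. In KO RT it stood at 18.1, 4.49, 47.7, 46.3 and 2.05 CPM, and all KO cold libraries had 0 counts. The WT groups overlapped through WT RT replicate 4 and the KO groups did not. Its log2 change in WT was -5.57 ± 1.67 (adjusted p = 0.0124). In KO it was at least 1130-fold lower in the cold (adjusted p = 0.00777).

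Mb, myoglobin, the oxygen store of oxidative fibres, did not follow Ckm, and it was chosen for description after its values were seen. It stood at 26, 9.37, 2.17, 3.43 and 2.2 CPM in WT RT and at 2.08, 2.6, 2.35, 3.76 and 0.525 CPM in WT cold. In KO it stood at 8.25, 5.54, 12.6, 12.7 and 3.98 CPM at RT and at 2.81, 3.53, 11.9, 14.8 and 13.3 CPM in the cold. KO cold replicates 4 and 5 lay above all KO RT libraries, and replicate 3 above all but the 2 highest, although Ckm had 0 counts in them. Mb changed by -1.95 ± 0.73 in WT (adjusted p = 0.0309), but by -0.94 without WT RT replicate 1 (adjusted p = 0.22), and the call ended under 9 of the other settings tried. In KO it changed by 0.11 ± 0.68 (adjusted p = 0.901). In the cold the KO level was higher by 2.05 ± 0.73 on the log2 scale, which did not pass (adjusted p = 0.111), with group means of 9.28 and 2.26 CPM. Without WT RT replicate 1 Mb was called higher in KO there.

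Measured against Ckm, the members ranged from a nearly fixed proportion to widely differing ones. In the 8 libraries with at least 100 Ckm counts, which were all RT libraries, the number of Acta1 counts per Ckm count ranged from 1.45 to 1.96, a factor of 1.35. The factor between the highest and lowest ratio was 1.26 for Actn3, 1.27 for Tnnt3, 1.28 for Tnnc2, 1.44 for Tnni2, 1.54 for Myh4 and 1.58 for both Pvalb and Myot. These libraries came from both genotypes and differed in Ckm from 2.97 to 112 CPM. The factor was 27.0 for Myom3, 22.8 for Des, 19.5 for Myl1, 18.4 for Jph1, 14.4 for Myh1 and 13.4 for Tnnc1. Between these ends lay the other members with counts in all 8, from 1.63 for Ttn over 1.92 for Myoz1, 2.36 for Mylpf, 2.79 for Xirp2, 4.67 for Lmod3 and 6.29 for Mb to 8.6 for Xirp1. The ratios of Myom3, Des, Myl1 and Jph1 were lowest in WT RT replicate 1, which had the most Ckm.

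**Figure D5:**
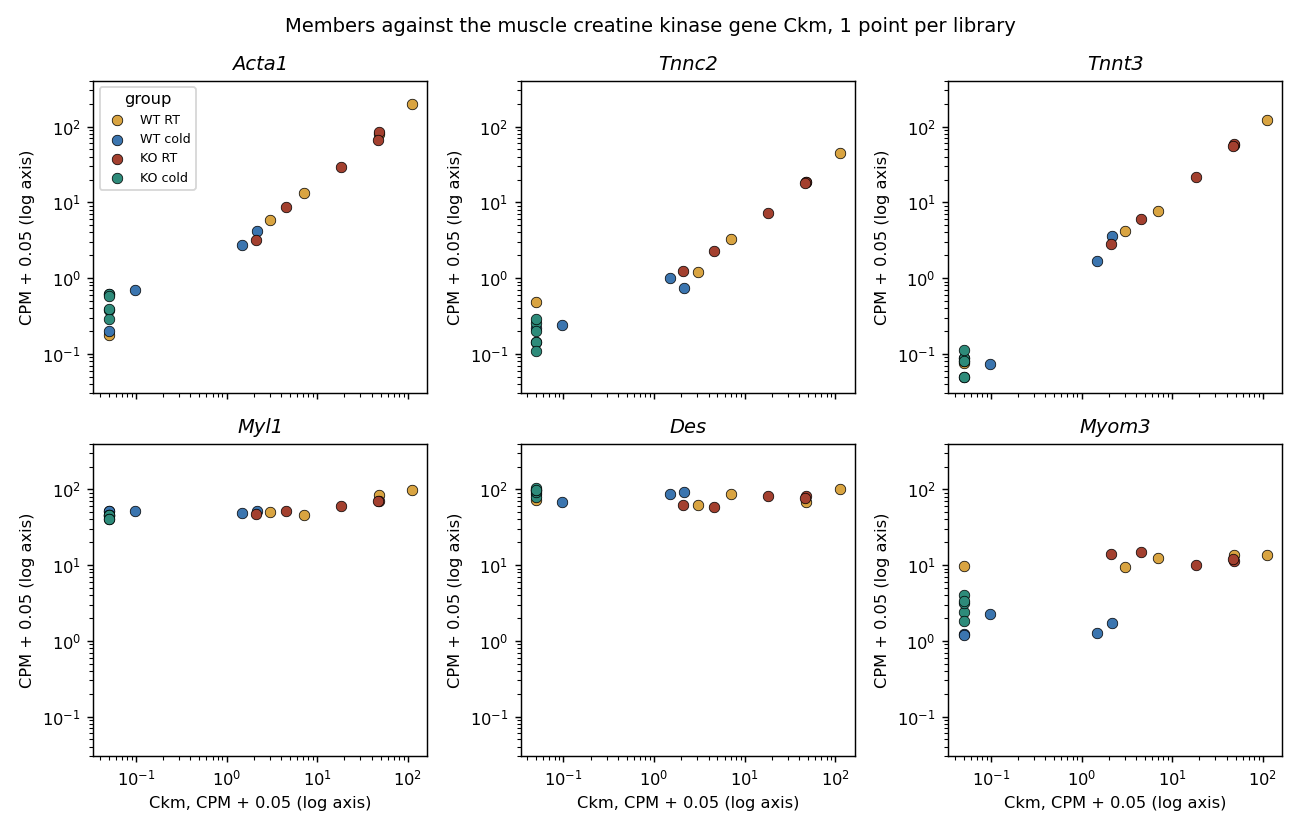
CPM plus 0.05 of Acta1, Tnnc2, Tnnt3, Myl1, Des and Myom3 (vertical axes, log scale) against that of Ckm (horizontal axis, log scale), with 1 point per library, coloured by group. Acta1, Tnnc2 and Tnnt3 rise in proportion to Ckm where Ckm is above 1 CPM, and Myl1 and Des stay nearly level. Myom3 is high in the RT libraries and low in the cold ones, none of which had more than 2.1 CPM of Ckm.

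In 9 libraries with fewer than 10 Ckm counts, namely WT RT replicate 4, WT cold replicates 2, 4 and 5 and the 5 KO cold libraries, 10 members still had at least 10 counts in each. The highest among them were Des, with a median of 91.9 CPM, and Myl1, with 45.9 CPM. Myom1 (4.32), Ldb3 (3.72), Mb (3.53), Jph1 (2.52), Actn2 (2.47), Myom3 (2.35), Xirp1 (0.967) and Neb (0.906) had lower median CPM. These 10 genes had counts in BAT libraries that held hardly any mRNA of Ckm. The name of the list, skeletal muscle genes, thus covers most of them less well than most of the other 28. The cut is by number of counts, so it also depends on abundance. Among the 10, Neb kept 6.92% and Myom3 19.4% of the median CPM in the 8 libraries with at least 100 Ckm counts. Among the 28, Mybpc2 kept 11.2%, Tnnt1 17.3% and Tnnc1 24.6%. Summed over the other 28 members, the level in the 9 libraries was 1.19 to 3.96 CPM, against 1330 CPM in WT RT replicate 1. Of the 28, 27 were tested, and 27 of them were called lower in the cold in WT and 23 in KO. Of the 10, 4 were called lower in WT, and in KO 4 were called lower and 1 higher, where 30.2% and 31.7% of all genes were called lower in WT and in KO. Since the 9 libraries are mostly cold ones, the split into 10 and 28 is not independent of the cold change, and it carries no test.

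Other sarcomere genes, from a list that holds no member, were lower in the cold as well. Of 35 further sarcomere and calcium genes 25 were tested. In WT 20 fell and 0 rose, where 30.2% of all genes were called lower. In KO 18 fell and 0 rose, where 31.7% were called lower. Some of the 25 had hardly any counts in the cold and passed the filter through the RT libraries, so their fall was partly built in. Atp2a1, the calcium pump of fast fibres, had the highest RT mean of this list, 72.7 CPM, and changed by -5.17 ± 1.42 in WT (adjusted p = 0.00512) and by -9.20 ± 2.16 in KO (adjusted p = 0.00155). Cmya5, a Z disc protein with the second highest mean, changed by -2.48 in WT and by -1.40 in KO, and both passed. Myl2, the slow regulatory light chain, had 194 counts in WT RT, most of them in replicate 1, and 2 in WT cold, a ratio of 102 (exact 95% counting interval 28.2 to 841; edgeR adjusted p = 0.0263). Of 21 energy supply enzymes of muscle 20 were tested, with 7 lower and 3 higher in WT and 8 lower and 4 higher in KO, shares not far from the 30.2% and 31.7% of all genes called lower. Several are abundant in BAT itself, such as the glycolytic enzyme Aldoa at 1740 CPM at RT and Pdk4, which restrains pyruvate oxidation, at 1810 CPM. Of this list Ampd1, a muscle AMP deaminase, changed by -5.12 in WT and by -4.12 in KO (adjusted p = 0.0035 and 0.0177). Ckmt2, the creatine kinase of muscle mitochondria, had 189 counts in KO RT and 0 in KO cold, and was at least 54.9-fold lower there (adjusted p = 0.0294).

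The MyoD family and Pax7, which set muscle cell fate, had few counts. Of 12 myogenic and satellite cell genes only 5 were tested, with 1 higher and 2 lower in WT and 2 higher and 2 lower in KO, too few to set against the shares over all genes. The MyoD family and Pax7, the satellite cell factor, were not among the 5. Over all 20 libraries Myf6 had 53 counts, Myog 14, Myod1 9, Myf5 3 and Pax7 1, each with its highest level in WT RT replicate 1. In the 9 libraries low in Ckm Myog had 3 counts and the other 4 had 0. These 5 were picked after their values were seen. Six4, a homeobox factor, rose by 0.99 ± 0.27 in WT (adjusted p = 0.00435) and by 1.63 ± 0.28 in KO (adjusted p = 4.31e-05). Mef2c, whose protein binds the MEF2 motif, stood at 20.6 CPM at RT and changed by -0.81 ± 0.09 in WT (adjusted p = 1.43e-07) and by -0.68 ± 0.09 in KO (adjusted p = 1.38e-06). Of 8 genes of the neuromuscular junction 1 was tested: Chrnb1, a subunit of the muscle acetylcholine receptor, rose by 1.22 ± 0.21 in WT (adjusted p = 5.53e-05) and by 1.45 ± 0.22 in KO (adjusted p = 8.9e-06). Chrng, the fetal receptor subunit, had 0 counts in all 20 libraries.

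Few heart genes were measured: of 11, 4 were tested. Myl4, the atrial and embryonic light chain, rose by 1.76 ± 0.29 in WT (adjusted p = 3.29e-05) and by 2.51 ± 0.29 in KO (adjusted p = 6.16e-07), the opposite direction to the skeletal light chain genes that passed. Tbx5, a factor of heart and limb, changed by -0.74 ± 0.23 in WT (adjusted p = 0.0101) and changed by 0.00 ± 0.23 in KO (adjusted p = 0.994).

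Summed levels of the markers of other cells of the tissue differed less between libraries than the sum of the 12 fast fibre members, which ran from 42.0 to 872 CPM. Summed over 9 smooth muscle and pericyte markers the level was 756 to 884 CPM in WT RT, 720 to 1480 in WT cold, 769 to 865 in KO RT and 759 to 919 in KO cold. Over 6 fibroblast and progenitor markers it was 280 to 341 CPM in WT RT, 307 to 346 in WT cold, 334 to 442 in KO RT and 385 to 404 in KO cold. Over 6 tendon cell markers it did not exceed 2.15 CPM in any library. Endothelial markers summed to 695 to 891 CPM in WT RT and 772 to 981 in WT cold, and to 588 to 783 in KO RT and 879 to 1020 in KO cold. Lymphocyte markers summed to 1.56 to 2.75 CPM in WT RT and 0.626 to 1.53 in WT cold, and to 1.73 to 2.89 in KO RT and 0.706 to 1.36 in KO cold, and the highest cold library lay below the lowest RT library in each genotype. Macrophage markers summed to 74.6 to 136 CPM over the 20 libraries, Schwann cell and nerve markers to 27.9 to 58.6 CPM and white adipocyte markers to 18.5 to 54.1 CPM. Some single markers differed more than Des and Myl1 did. Mylk, a myosin kinase of smooth muscle, ran from 43.5 to 859 CPM (highest in WT cold replicate 4) and Cnn1, calponin, from 2.54 to 32.0 CPM. Lep, leptin, ran from 0.155 to 9.38 CPM and Nnat, a marker of white adipocytes, from 0.557 to 18.4 CPM, with its highest level in WT RT replicate 1. The part of these cells, or of muscle tissue in the sample, in the members' changes was not tested.

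The genes outside the 38 with the pattern most like the median of the fast fibre members, by the mean absolute difference of centred log2 CPM over the 20 libraries, were Ryr1 (0.408), Mylk4 (0.458), Apobec2 (0.461), Eef1a2 (0.467) and Ppp1r3a (0.727). Ryr1 encodes the calcium release channel of skeletal muscle, and Ppp1r3a a subunit that targets a phosphatase to muscle glycogen. On the same measure the nearest member was Cacna1s (0.235), and the farthest were Des (2.54), Actn2 (2.45) and Xirp1 (2.44).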

How the data were processed

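The libraries were made from poly(A) mRNA with a stranded KAPA kit, per the labels' protocols. Trimming with Trim Galore 0.6.0 was followed by alignment with STAR 2.7.8a to GRCm38.p6, per the submitters' processing notes. The annotation release is not given in the sources used here. The authors deposited counts, as whole reads per gene for each strand. The column of the strand that held 94.5% to 95.7% of stranded counts was used. The 4 entries that name no gene were left out. They held 18.26% to 21.41% of reads at several places, 3.86% to 5.66% unmapped, 3.14% to 4.55% outside genes and 1.02% to 1.16% ambiguous. Replicates differed by 15.2 to 107.7 times counting error (chi-square per degree of freedom), so no library was a copy of another.

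Counts were fitted in R 4.3.3 with edgeR 4.0.16, after filterByExpr (count minimum 10, total minimum 15) and TMM scaling. A single robust quasi-likelihood model held all groups and left 16 residual degrees of freedom, and it was tested on simulated data. The other settings were relative log expression scaling, no filter, DESeq2 1.42.0, a model of the compared libraries alone, a replicate block, counts of both strands, each library omitted, and both WT libraries between the temperatures omitted. Omitting the RT libraries richest in Ckm was added after seeing the data. Exon lengths and positions came from GENCODE on GRCm38, and symbols matched for 55144 IDs. Tables were made with pandas 2.3.3 and figures with matplotlib 3.10.9.

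The members and all gene lists were chosen with earlier results of these data known. By rule, values were printed per library for the member of highest RT mean in each role, for the ends of the range of cold changes and for the slow fibre genes, and genes of other lists were named for the highest level, the largest change or 0 counts. Members marked as chosen after their values were seen, others named in passing (such as Tnnt3 and Ttn), and Tbx5 fall outside this rule.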

Additional observations from a re-analysis of the deposited data

Results flagged for a closer look

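Each of the 38 members was checked in each group of 5 libraries for a highest or lowest library that stands far from the rest, by the gap to its nearest neighbour over the range of the group. Of 143 such groups 15 stood out. Chance gives about 1 in 20 for independent values with a normal spread. These CPM are skewed, some rest on few counts, and the members move together, so the 15 are not separate events. In 9 of the 15 the library was WT RT replicate 1. It was the far library for Myh7 (11.5 CPM), Myh2 (10.5 CPM), Actn2 (10.4 CPM), Myot (13.1 CPM), Tnnt1 (6.44 CPM), Lmod2 (4.2 CPM), Xirp1 (2.68 CPM), Tnni1 (2.59 CPM) and Tnnc1 (2.59 CPM). All 4 slow fibre genes are among these 9.

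In the other 6 the far library had from 1 count (Pvalb) to 28 counts (Cacna1s). In WT cold they were Myh2 (0.219 CPM) and Cacna1s (0.613 CPM) in replicate 1 and Tnni1 (0.0882 CPM) in replicate 3. In KO cold they were Pvalb (0.0392 CPM) in replicate 2, Myoz1 (0.0928 CPM) in replicate 4 and Ttn (0.148 CPM) in replicate 5.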

How the results depend on the processing

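Of the 60 calls of single members, 42 could be run under all 27 other settings, those added after seeing the data aside, and 35 of these held. The remaining 18 were not run under some setting, because the gene was not tested there (16 with only the libraries compared, 2 with counts of both strands), and 15 of them held where run. The other 10 calls ended under at least 1 setting, and no change that was called reversed its direction. The 10 were Cacna1s, Ldb3, Lmod2, Mb, Myh4 and Myh7 for cold in WT and Des, Jph1, Lmod2 and Myl1 for cold in KO. The number of members lower in the cold in WT was 31, and 20 when only the libraries compared were fitted (28 members tested), 2 without both WT RT libraries richest in Ckm and 3 without the 4 RT libraries richest in Ckm (Myom3, Mylpf and Tnnc2). In both of these last settings 1 member was higher. For cold in KO the number higher was 0 without the filter and 2 without the 4 RT libraries. For the knockout in the cold, 4 members were lower with DESeq2, and 1 (Jph1) without both WT libraries between the temperatures, without WT cold replicate 5 or without KO cold replicate 3. There 2 were higher with DESeq2, with only the libraries compared (13 members tested), without WT RT replicate 1 and without both WT RT libraries richest in Ckm, and 3 without the 4 RT libraries. The Myh7 share of WT RT replicate 1 was 2.79% as raw counts and 1.09% with both strands.

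With each library left out in turn, 25 to 34 members were lower in the cold in WT, 24 to 32 lower and 1 higher in KO, and 0 to 1 lower and 1 to 2 higher for the knockout in the cold. With the replicate number as a block, 29 were lower in WT and 29 in KO. Libraries with the same number did not deviate together (correlations of -0.184 to 0.274, 7 of 20 libraries closest to their own number), so the numbers were not taken as pairs. Members with 0 to 3 counts in a cold group allow bounds only, and the number of libraries rich in muscle mRNA, 4 of 10 at RT, limits what the groups can show.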
